A study of Arabidopsis thaliana with 4 samples.

Results

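The type-A response regulators of Arabidopsis thaliana are a family of 10 genes, ARR3 to ARR9 and ARR15 to ARR17, taken here as all 10 loci of the family and matched to the arrays by locus identifier. Each of the 10 was represented by 1 probe, among 25665 loci with a probe, and 9 of the 10 could be tested, among 19314 genes tested. The samples were 5 d old Col-0 seedlings, either wild type or carrying mutations in both HSFB1 and HSFB2B, which encode heat shock factors of class B. All seedlings had been raised at 23 °C and then had their plate held in water at 32 °C for 30 min, so both genotypes were heated and unheated seedlings were not analysed here. Whole-seedling RNA of the hsfb1 hsfb2b double mutant and of the wild type was hybridised together on 4 two-colour Agilent arrays, 1 per replicate, with many seedlings of both genotypes from a shared plate behind each array. The mutant carried Cy3 in replicates 1 and 3 and Cy5 in replicates 2 and 4. The alleles and how they were made are not given in the sources used here.

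Cytokinin is a plant hormone read by histidine kinase receptors, which pass a phosphate group through histidine phosphotransfer proteins to response regulators in the nucleus. Type-B response regulators bind DNA and switch on target genes, and the type-A genes are among the first of those targets. Type-A proteins have a receiver domain without a DNA-binding output domain and dampen the pathway that induces them, so their transcripts are widely used as a readout of cytokinin signalling.

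In these heated seedlings the fitted log2 ratios of the tested members lay between -0.18 and 0.12. ARR15 was lower and ARR8 was higher in the double mutant, by 1.14-fold and 1.08-fold, and the other 7 tested members did not pass the threshold. Both called genes were dim, and the background correction used draws the ratios of dim genes towards 0. With the scanner software's processed signals their log2 ratios were -0.52 and 0.34, and ARR15 then did not pass. The 2 called members are 22.2% of the 9 tested, where 29.8% of all genes tested passed the same limma test at an adjusted p under 0.05. At an unadjusted p under 0.05 in limma there were 5 of the 9, ARR3, ARR6, ARR7, ARR8 and ARR15, against 8149 of all 19314 genes tested. In each direction 1 of the 9 was called, against 16.6% of all genes higher and 13.1% lower in the mutant. The median log2 ratio of mutant over wild type was -0.033 over the 9 members and 0.00065 over all genes tested, and the median absolute log2 ratio was 0.11 for the members and 0.072 for all genes. All 9 tested members were well above background in every one of the 8 channels, so none of them entered the test through 1 genotype alone.

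As a check of the labels, the log2 ratio of HSFB1 was -5.79 ± 0.03 (SE, n = 4 arrays) and that of HSFB2B was -4.68 ± 0.07 (SE, n = 4), both far below the wild type on every array. From 58.7% to 60.9% of the spots per array and channel were well above background. Ratios of arrays with the same dye orientation correlated at 0.795 and 0.803 across genes, and those of opposite orientation at 0.346 to 0.494, so the fit carried a dye effect for each gene. The dye effect passed the threshold for 18.1% of all genes tested and for 0 of the 9 members, whose limma adjusted p for the dye ranged from 0.18 to 0.81, and 0 members had an unadjusted dye p under 0.05. With 4 arrays, precision is limited for each member described next.

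ARR7 (AT1G19050) and ARR15 (AT1G74890) form a closely related pair whose products act in the shoot meristem and in the early root of the embryo. The processed signal of ARR15, in arbitrary units after background subtraction and dye normalization by the scanner software, was 116, 132, 98.3 and 159 in the mutant in replicates 1 to 4. In the wild type it was 156, 205, 199 and 160. The wild type was brighter on all 4 arrays, by least in replicate 4. After the normalization used for the test, the log2 levels of ARR15 were 8.16, 8.20, 8.03 and 8.23 in the mutant and 8.26, 8.37, 8.39 and 8.34 in the wild type, and the genotypes did not overlap. The log2 ratios were -0.098, -0.17, -0.35 and -0.11, with replicate 3 the lowest. The fitted log2 ratio was -0.18 ± 0.05 (SE, n = 4; 95% interval -0.29 to -0.075; limma adjusted p = 0.023), and 15.6% of all genes tested had a larger absolute ratio. In whole-seedling RNA, fewer cells that express a gene and less of its RNA per cell cannot be told apart. ARR15 was dim, at 2.82 to 6.0 times the local background. Its ratio was -0.23 with an offset of 0 in the background correction and -0.26 without background correction, and both passed the threshold. It became -0.52 with the scanner software's own processed signals, while its limma adjusted p moved to 0.061. Which step of the processing made the difference was not tested. Without replicate 3 the ratio was -0.12 and the limma adjusted p 0.14, and over the 15 alternatives tried the adjusted p ran from 0.0049 to 0.15.

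ARR7 had normalized log2 levels of 9.67, 9.53, 9.35 and 9.70 in the mutant. In the wild type they were 9.71, 9.75, 9.82 and 9.70. The genotypes did not overlap, but replicates 1 and 4 were almost level, with log2 ratios of -0.045 and -0.0022, against -0.22 in replicate 2 and -0.47 in replicate 3. The fitted log2 ratio of -0.18 ± 0.07 (SE, n = 4; limma adjusted p = 0.084) was as large as that of ARR15 and did not pass. The call turned on the arrays kept: the ratio was -0.29 with an adjusted p of 0.022 in limma without replicate 1, and -0.24 with 0.012 without replicate 4. It was -0.13 with 0.14 without replicate 2 and -0.078 with 0.43 without replicate 3, and the adjusted p lay within 0.012 to 0.43 over the alternatives. ARR7 and ARR15 were the only 2 of the 9 tested members whose levels did not overlap between genotypes, where 10.7% of the 18644 genes with all 4 ratios had that pattern.

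ARR8 (AT2G41310) belongs to a pair with ARR9 (AT3G57040), both of them negative regulators of cytokinin responses in roots. RefSeq lists the first under the symbol RR3 with ARR8 as a synonym, and it is called ARR8 here, separate from ARR3. Its log2 levels were 7.71, 7.89, 7.79 and 7.86 in the mutant and 7.69, 7.74, 7.71 and 7.64 in the wild type. With these levels the mutant was higher on all 4 arrays, but the groups overlapped, because the mutant of replicate 1 lay below the wild type of replicate 2. The log2 ratios were 0.018, 0.15, 0.078 and 0.22 in replicates 1 to 4, with a mean of 0.048 where the mutant carried Cy3 and 0.19 where it carried Cy5. The fitted log2 ratio was 0.12 ± 0.03 (SE, n = 4; 95% interval 0.039 to 0.20; limma adjusted p = 0.036). This call was lost when any of replicates 1, 3 and 4 was left out, with ratios of 0.13, 0.10 and 0.10 and limma adjusted p of 0.095, 0.20 and 0.11. ARR8 was dim at 2.08 to 3.28 times background, and its processed signals gave log2 ratios of -0.16, 0.72, 0.094 and 0.72, so that replicate 1 went the other way. The fitted ratio with them was 0.34 at a limma adjusted p of 0.017, within a range of 0.0061 to 0.38 over the alternatives.

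ARR9 was bright, at 37.0 to 100.4 times background. Its log2 ratios of 0.040, 0.081, 0.011 and 0.034 all lay above 0 and close together. The fitted log2 ratio of 0.042 ± 0.032 (SE, n = 4; 95% interval -0.033 to 0.12; limma adjusted p = 0.37) did not pass, and its interval holds both signs.

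**Figure D1:**
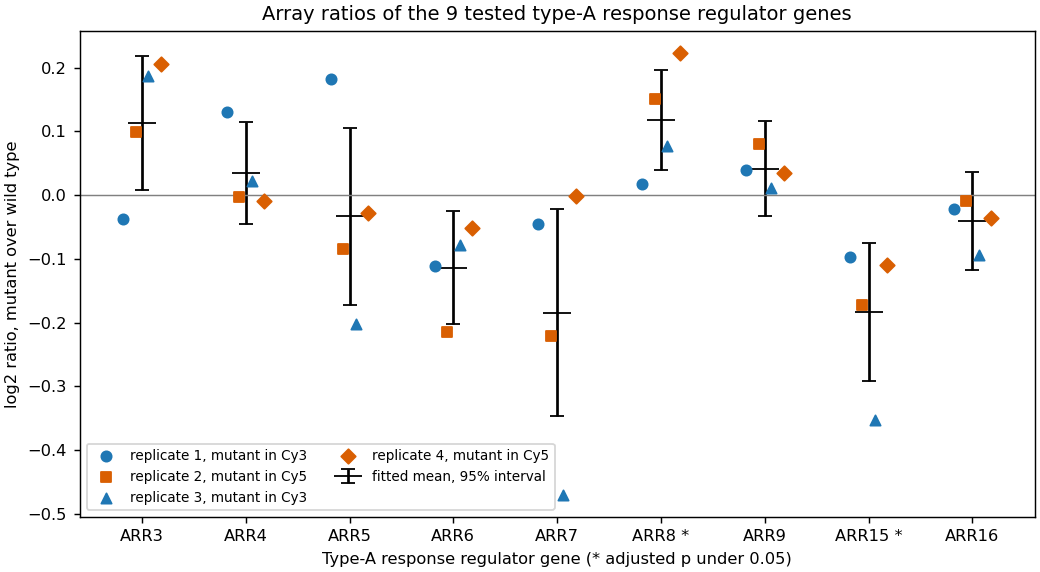
Log2 ratio of mutant over wild type (vertical axis) for the 9 tested type-A response regulators (horizontal axis). Each has 1 point per array, by dye orientation, and the fitted ratio with its 95% interval. The intervals of ARR3, ARR6, ARR7, ARR8 and ARR15 lie on one side of 0, of which ARR8 and ARR15 passed the adjusted threshold, and the 4 points of ARR7 spread from -0.47 to -0.0022.

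ARR3 (AT1G59940) and ARR4 (AT1G10470) form another pair, known for roles in the circadian clock, and ARR4 binds the red light receptor phytochrome B. ARR3 was the dimmest tested member, at 1.96 to 2.56 times background, and its log2 ratios were -0.038, 0.099, 0.19 and 0.21 in replicates 1 to 4. It was lower in the mutant in replicate 1 and higher in the other 3. Its fitted log2 ratio was 0.11 ± 0.05 (SE, n = 4; 95% interval 0.0083 to 0.22; limma adjusted p = 0.097), and it was 0.52 with the processed signals, whose array values were -0.20, 0.80, 0.79 and 0.71. ARR4 was the brightest, at 56.2 to 157 times background, with log2 ratios of 0.13, -0.0030, 0.022 and -0.0094. Only replicate 1 lay away from 0, and the fitted log2 ratio was 0.035 ± 0.034 (SE, n = 4; 95% interval -0.045 to 0.12; limma adjusted p = 0.48).

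ARR5 (AT3G48100) and ARR6 (AT5G62920) are strongly cytokinin-inducible genes, and the ARR5 promoter is a standard reporter of cytokinin response. ARR5 had log2 ratios of 0.18, -0.085, -0.20 and -0.028, so the arrays went both ways. Its fitted log2 ratio was -0.033 ± 0.059 (SE, n = 4; 95% interval -0.17 to 0.11; limma adjusted p = 0.70). ARR6 had log2 ratios of -0.11, -0.21, -0.079 and -0.051, all below 0. Its fitted log2 ratio was -0.11 ± 0.04 (SE, n = 4; 95% interval -0.20 to -0.025; limma adjusted p = 0.059) and did not pass. Levels of ARR6 varied more between replicates than between genotypes: they averaged 9.71 ± 0.31 on the log2 scale in the mutant and 9.83 ± 0.35 in the wild type (SD, n = 4), with both genotypes highest in replicate 1 and lowest in replicates 3 and 4.

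ARR16 (AT2G40670) and ARR17 (AT3G56380) form the remaining pair, with known roles in the leaf epidermis, where they act in the stomatal lineage. ARR16 lay at 2.58 to 3.81 times background, with log2 ratios of -0.022, -0.0096, -0.093 and -0.036. All 4 were small and below 0, and the fitted log2 ratio was -0.040 ± 0.033 (SE, n = 4; 95% interval -0.12 to 0.037; limma adjusted p = 0.39). ARR17 was not well above background in any of the 8 channels, with raw signals between 65.5 and 77 at 1.15 to 1.67 times background, and no ratio is given for it.

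**Figure D2:**
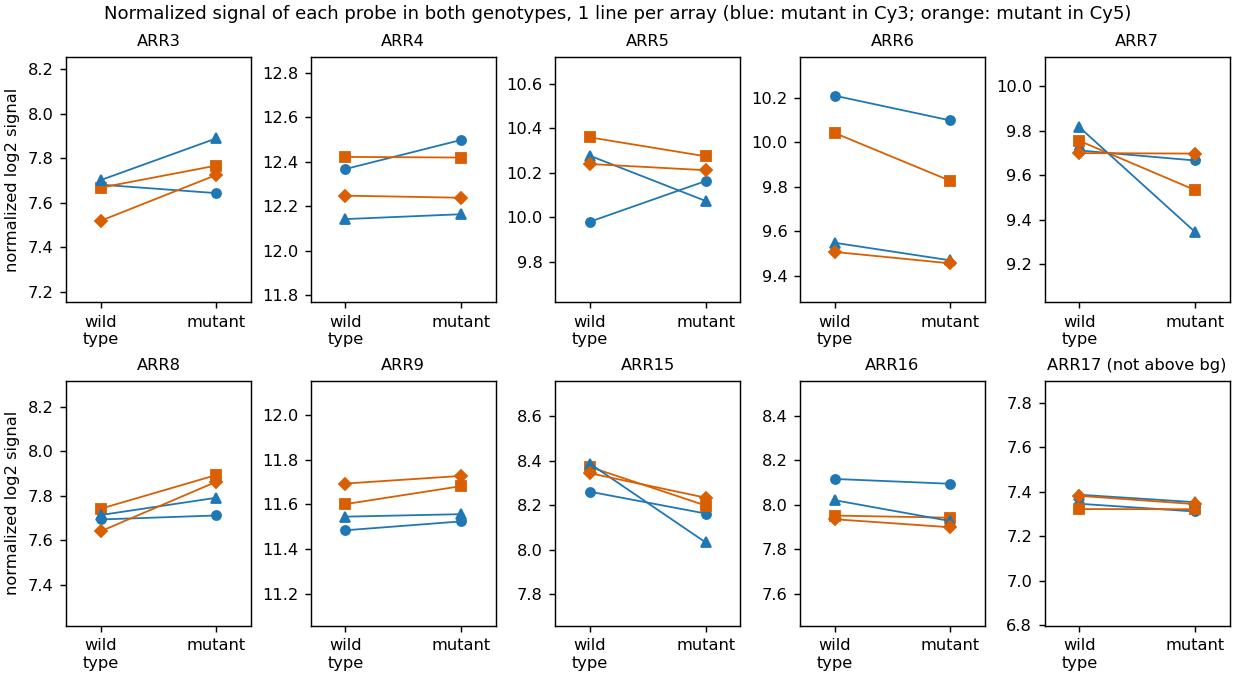
Normalized log2 level (vertical axis) of each of the 10 members on the 4 arrays, with mutant and wild type of the same array joined. ARR17, which was not tested, is drawn as well. The lines of ARR15 and ARR7 fall from wild type to mutant without overlap between the genotypes, while the levels of ARR6 differ between arrays more than between genotypes. Levels of different probes are not comparable with each other.

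Of the 9 tested members, 6 had the same sign on all 4 arrays, namely ARR6, ARR7, ARR15 and ARR16 below 0 and ARR8 and ARR9 above 0, where 35.3% of the genes with all 4 ratios did so. With the processed signals the count was 2 of 9, ARR6 and ARR15, against 39.6% of genes, and ARR7, ARR8, ARR9 and ARR16 had ratios on both sides of 0. The median log2 ratio over the members was -0.022, -0.0096, -0.079 and -0.0094 in replicates 1 to 4, and over all genes it was -0.0019, 0.014, -0.0028 and 0.010. Replicate 3 was thus the array on which the members lay lowest, and it carried the lowest ratio of ARR5, ARR7, ARR15 and ARR16. The difference between paired members was compared within arrays for the 4 pairs in which both were tested. ARR8 minus ARR9 was 0.076 ± 0.086 in log2 ratio (SD, n = 4 arrays; two-sided exact sign-flip permutation p = 0.25), and ARR7 minus ARR15 was -0.0012 ± 0.10 (SD, n = 4; exact p = 1). ARR3 minus ARR4 was 0.079 ± 0.17 (SD, n = 4; exact p = 0.5) and ARR5 minus ARR6 was 0.081 ± 0.18 (SD, n = 4; exact p = 0.375). With 4 arrays the smallest p this exact test can give is 0.125, so no pair could pass, and the adjusted exact p over the 4 pairs ran from 0.667 to 1.

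**Figure D3:**
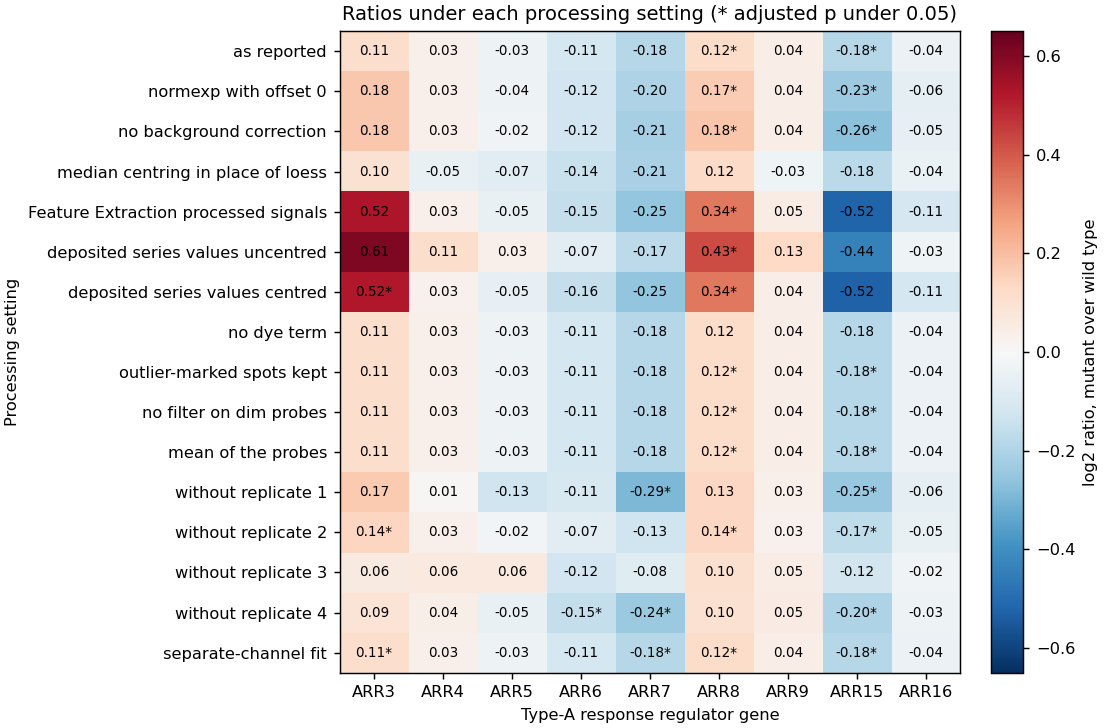
Fitted log2 ratio (colour and printed value) of each tested member (horizontal axis) under the main processing and 15 alternatives (vertical axis). A star marks an adjusted p under 0.05. ARR15 ran from -0.52 to -0.12 and ARR8 from 0.10 to 0.43, and ARR4, ARR5 and ARR9 crossed 0.

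Among the 3 other genes whose 4 array ratios lay nearest to those of ARR15, by Euclidean distance over 18635 candidates, AT3G13950 came first at a distance of 0.044 and had a fitted log2 ratio of -0.19. ASL9 and AT3G51500 followed at 0.073 each, with fitted log2 ratios of -0.21 and -0.21. These genes were picked for that nearness, so their fitted ratios had to lie near that of ARR15. Of the 18 tested genes nearest to the 9 tested members on the chromosomes, on either side, 3 were called, 1 higher and 2 lower. Over all genes tested, 29.8% were called.

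The wider cytokinin pathway showed a share of calls near that of all genes. Over 9 lists with 64 genes, each counted once, 49 were tested. Of these, 7 were higher in the mutant, 7 were lower and 35 did not pass. That is 28.6% called, against 29.8% of all genes tested. Between the lists with tested genes, the share called ran from 0% for receptor kinases and transporters to 66.7% for cytokinin response factors. Upstream of the type-A genes, 0 of the 3 tested receptor kinases passed in limma, and 0 had an unadjusted p under 0.05. Of the 6 phosphotransfer proteins, AHP3, which relays the phosphate to the regulators, was higher with a log2 ratio of 0.21 ± 0.03 (SE, n = 4; limma adjusted p = 0.0028). Its ratios were 0.036 and -0.0056 where the mutant carried Cy3 and 0.41 and 0.42 where it carried Cy5, and its dye effect also passed (limma adjusted p = 0.011). Among 6 tested type-B regulators, the activators of the type-A genes, ARR10 alone passed, at 0.20 ± 0.04 (SE, n = 4; limma adjusted p = 0.0063). Its ratios were 0.32 and 0.35 where the mutant carried Cy3 and 0.13 and -0.00083 where it carried Cy5. The dye effect passed the limma threshold for 4 of these 6 type-B genes, against 18.1% of all genes tested. Neither of the 2 listed type-C regulators was bright enough to be tested.

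Of 14 tested genes of cytokinin synthesis and activation, 6 had an unadjusted p under 0.05 in limma in either direction. After adjustment 3 were higher and 0 lower, which is 21.4% called, against 29.8% of all genes tested. These were LOG7 at 0.22 ± 0.05 (SE, n = 4; limma adjusted p = 0.013), LOG4 and LOG2, whose products release active cytokinin from its nucleotides, and LOG4 is named after its value was seen. LOG2 was well above background on all 4 arrays in the mutant but on 1 of 4 in the wild type, so it entered the test only through the genotype in which it was brighter. Its log2 ratio was 0.18 (limma adjusted p = 0.027) in the main processing, 2.21 with processed signals and 0.11 without replicate 4 (adjusted p = 0.073), so its size is not settled here. Among the 8 tested genes that break down or glucosylate cytokinin, CKX6 was lower at -0.29 ± 0.03 (SE, n = 4; limma adjusted p = 0.00078) and CKX1 at -0.12 ± 0.03 (SE, n = 4; limma adjusted p = 0.034), while CKX5 was higher at 0.15 ± 0.03 (SE, n = 4; limma adjusted p = 0.016). These 3 encode cytokinin oxidases, and each had the same sign on all 4 arrays. They are 37.5% of the 8 tested, against 29.8% of all genes tested. None of the 4 tested transporters passed in limma, with 1 at an unadjusted p under 0.05.

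Cytokinin response factors are transcription factors of the AP2/ERF family that act beside the type-B regulators. Of 6 tested, 3 were lower and 1 was higher, which is 66.7% called, against 29.8% of all genes tested. Among them were CRF6 at -0.24 ± 0.04 (SE, n = 4; limma adjusted p = 0.0026) and CRF4 at -0.14 ± 0.04 (SE, n = 4; limma adjusted p = 0.040) below, and CRF3 at 0.15 ± 0.03 (SE, n = 4; limma adjusted p = 0.011) above. A list of 7 other cytokinin-induced genes had a median log2 ratio of -0.10, with 2 lower, 1 higher and 4 not passed, which is 42.9% called. The lower ones were ASL9, a LOB-domain gene, at -0.21 ± 0.04 (SE, n = 4; limma adjusted p = 0.010) and CGA1, a GATA factor of chloroplast development, at -0.15 ± 0.04 (SE, n = 4; limma adjusted p = 0.020), and the higher one was CKX5 again. The ratios of CGA1 were -0.28 and -0.33 where the mutant carried Cy3 and -0.054 and 0.075 where it carried Cy5, so replicate 4 went the other way. Of 15 alternatives, the call was lost in 7 for CRF4, in 6 for LOG2 and in 5 each for CGA1, CKX1 and CKX5. It was lost in 4 for CRF3, in 3 each for ARR10, LOG7 and ASL9 and in 2 for AHP3. CKX6 and CRF6 kept it in all 15. Leaving out replicate 3 alone ended the limma calls of ARR10, ASL9, CGA1, CKX1, CRF3, CRF4, LOG2 and LOG7. Leaving out replicate 1 ended those of CGA1, CKX1, CKX5, CRF3, CRF4 and LOG2. Without replicate 2 the call of CGA1 was lost, and without replicate 4 those of CKX1, CRF4 and LOG2. Calls over all genes also fell, from 29.8% to 11.7% without replicate 3 and 17.4% without replicate 1. They were 31.0% without replicate 2 and 27.3% without replicate 4. Known targets of cytokinin outside the type-A family thus also went in both directions.

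**Figure D4:**
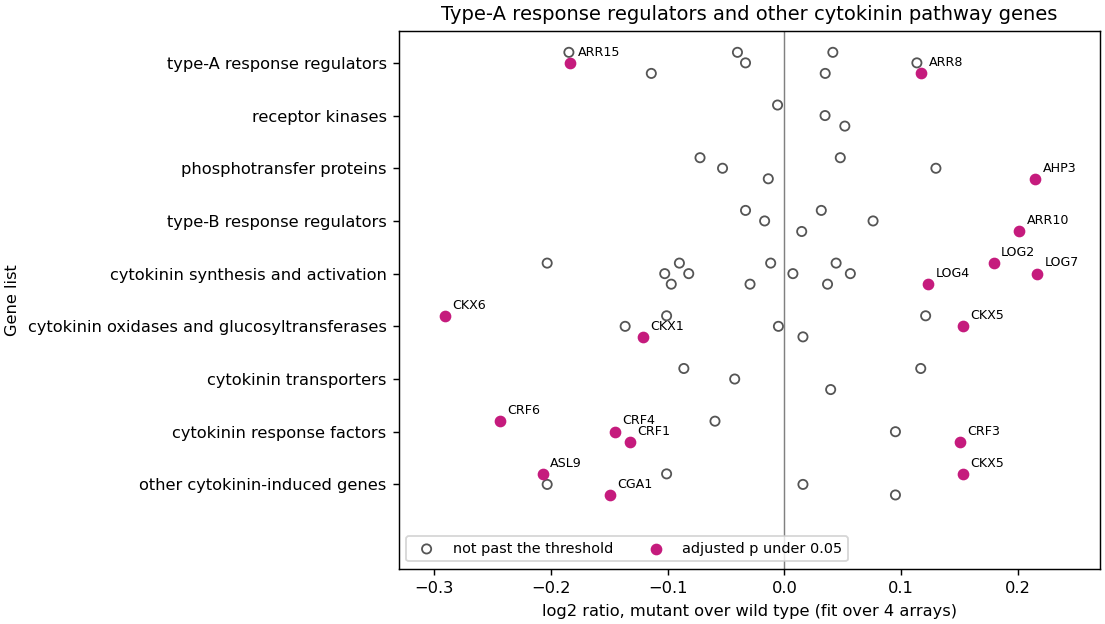
Fitted log2 ratio of mutant over wild type (horizontal axis) for every tested gene of the type-A family and of 8 other cytokinin lists, filled and named where the adjusted p was under 0.05. Called genes lie on both sides of 0 among the oxidases and the response factors, and CKX5 appears in 2 lists.

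Several type-A genes are expressed in meristems and roots, so marker genes of plant parts were read beside them. Of 8 root markers, all above background in every channel, 5 were higher and 2 lower in the mutant. That is 87.5% called, against 29.8% of all genes tested. Their median log2 ratio was 0.26. Their summed processed signal was 9068 to 10750 in the mutant and 8037 to 9260 in the wild type. Of 9 shoot markers, 7 were tested and 4 had an unadjusted p under 0.05 in limma, with a median log2 ratio of -0.13. After adjustment 0 were higher and 3 were lower, which is 42.9% called. The lower ones, named after their values were seen, were TMM, below 0 on all 4 arrays, and LHCB1.1 and LHCA3, which changed sign with the dye: LHCB1.1 had ratios of -1.27 and -0.98 where the mutant carried Cy3 and 0.63 and 0.52 where it carried Cy5, and LHCA3 had -0.75 and -0.92 against 0.41 and 0.30. The other 4 tested, RBCS1A, RBCS3B, STM and FAMA, did not pass in limma, with log2 ratios of -0.13, -0.060, -0.086 and 0.052. The summed signal of the shoot markers was 563500 to 798200 in the mutant and 580500 to 862900 in the wild type. The meristem gene STM was above background in all 8 channels, CLV3 in 1 and WUS in 0. Of 4 flower and pollen markers 1 was tested and was lower, with 2 in no channel, and of 4 seed storage markers 2 were tested and 0 passed in limma, with 1 at an unadjusted p under 0.05. The part of such differences in the ratios of ARR8 and ARR15 was not tested.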

How the data were processed

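Labelled RNA of both genotypes was read on 4 two-colour arrays. The submitters' processing notes name Agilent Feature Extraction 9.1.3.1. The deposited spot and background values are median intensity values without normalization, per the file headers, and the deposited processed signals are intensity values after the software's background subtraction and dye normalization. The deposited log10 ratios, red over green, came from those signals, per the file headers. The series matrix deposited by the authors holds natural log values, mutant over wild type: against the scanner ratios of the same arrays they correlated at -0.999, 0.996, -0.991 and 0.987 in replicates 1 to 4, with the sign following the mutant's dye. Their column medians were 0.0458, 0.0813, 0.107 and -0.0011, and, on the log2 scale, they equalled the ratios of the processed signals plus 0.081 on every array (100% of probes within 0.001). Why this constant was added is not stated in the labels or file headers.

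Normexp background correction used an offset of 50, which draws the ratios of dim genes towards 0. Ratios were normalized by loess within arrays, control and outlier-marked spots were given weight 0, and the 190 to 399 outlier-marked spots per array were left out. Probes well above background in all 4 channels of either genotype with at least 3 ratios were kept, with the brightest probe per gene, which left 19314 genes. The log2 ratio was fitted in limma 3.58.1 (R 4.3.3) with a dye effect per gene, eBayes and Benjamini-Hochberg adjustment over all genes, two-sided at 0.05. Levels are log2 intensities after loess and Aquantile scaling. No spot was saturated. The files gave 1 slide and 1 scan, so neither could be a batch. Intervals reflect the spread between arrays left after the dye effect, with each gene's spread drawn by eBayes towards a value common to all genes. The fit was tested on simulated data, in which the changes put in were larger than the fitted ratio of any member. Recovery of changes as small as those of the members was not tested.

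The members and lists were chosen with earlier results of these data known. Named genes are the members, the mutated genes, up to 2 called genes per direction and pathway list, and the 3 genes nearest to ARR15 in array pattern. Symbols follow the RefSeq table of assembly TAIR10.1 or common use, and 19217 of the genes tested matched it. Alternatives were other background corrections, median centring, processed signals, the series values, no dye term, a separate-channel fit, other spot and probe filters, and leaving out each array. Sequences and coordinates of the probes were not used here.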

Additional observations from a re-analysis of the deposited data

Results flagged for a closer look

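ASL9, a cytokinin-induced gene and one of those nearest to ARR15 in array pattern, stood out in replicate 3: its log2 ratio there was -0.36, against -0.15, -0.16 and -0.16 in replicates 1, 2 and 4. The gap to the nearest array was 0.949 of the whole range, above Dixon's 95% critical value for 4 samples. Of 23 genes examined 1 stood out in this way, and chance alone marks about 1 in 20.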

How the results depend on the processing

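Over 15 alternatives ARR15, ARR6, ARR7 and ARR16 stayed below 0 and ARR3 and ARR8 above 0. ARR15 was called in 10 of 16 settings, ARR8 in 11, ARR3 and ARR7 in 3 each and ARR6 in 1, all by limma. ARR15 lost its call with median centring, processed signals, both forms of the series values, no dye term and without replicate 3, and ARR8 with median centring, no dye term and without replicate 1, 3 or 4. The sign turned for ARR4 at -0.049 and ARR9 at -0.027 with median centring in place of loess, and for ARR5 at 0.032 with the uncentred series values and 0.063 without replicate 3 (-0.13 to 0.063 with 1 array left out). The uncentred series values are the processed-signal ratios plus a constant 0.081 for all genes, so the turn of ARR5 there is that shift. Members called numbered 0 with median centring (2 at an unadjusted p under 0.05 in limma; 13.2% of all genes called), 0 without the dye term (3 unadjusted; 9.45% of all genes), 1 with processed signals (26.2%), 1 with the uncentred series values (30.7%) and 4 with the separate-channel fit (40%). Leaving out 1 array gave 0 to 3, and the 0 came without replicate 3 (1 unadjusted, with 11.7% of all genes called). Their median was 0.032 with the uncentred series values and -0.058 to 0.049 with 1 array left out. Pathway genes called numbered 2 with median centring, 2 without the dye term, 22 with the separate-channel fit and 4 to 18 with 1 array left out, against 14. Members with a dye effect numbered 5 with median centring, against 0. Calls over all genes were 2547 with median centring, 1826 without the dye term, 3589 with the centred series values, 3268 without replicate 1 and 2194 without replicate 3, against 5747. The share of calls that were higher was 55.8% in the main processing, 45.5% with median centring, 80.0% with the uncentred series values and 68.0% without the dye term. The uncentred series values moved the median of all genes to 0.065. Other causes were not tested. The main fit was paired by array, because each array holds both genotypes of 1 replicate and the ratio itself is the pair. Signals near background limit ARR3, ARR8, ARR15, ARR16 and ARR17.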
